A study of Arabidopsis thaliana with 28 samples.

Results

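STZ and PUB19 are 2 Arabidopsis thaliana stress genes that were taken by symbol from the platform's probe-to-gene table, which names 13350 genes. STZ (AT1G27730, also called ZAT10) and PUB19 (AT1G60190) were read by 1 probe set each, and both passed the filter on low values. The arrays held RNA of the entire aerial part of seedlings of the accession Ws-2, in 28 samples of 7 groups with 4 samples each. Seedlings were 11 d old, raised on agar at 22 °C without a dark period at roughly 100 µmol m-2 s-1, and those of the cold groups then spent 24 h at 4 °C and roughly 35 µmol m-2 s-1. The warm groups were the wild type, plants overexpressing CBF1, CBF2 or CBF3 (CBF1OX, CBF2OX and CBF3OX), and plants overexpressing CBF2Δc, a truncated CBF2 that the labels also call CBF2DN. The cold groups were the wild type and the CBF2Δc plants. Each construct was represented by 2 lines with 2 samples each: CBF1OX had lines G5 and G39, CBF2OX had E2 and E24, CBF3OX had A28 and A30, and CBF2Δc had DN89 and DN96. Cold came with dimmer light and 24 h more of age, and these cannot be told apart. The labels call the samples biological replicates. The sources used here name neither the transgenes' promoter nor any pooling of plants, so p-values cover only the spread seen among the samples.

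STZ encodes a C2H2 zinc finger protein that acts as a transcriptional repressor. Its transcript is known to rise under cold, salt, drought and excess light, and its protein is phosphorylated by MAP kinases. PUB19 encodes a ubiquitin ligase with a U-box domain. It is known, together with its close relative PUB18, as a negative regulator of the abscisic acid response that closes stomata under drought. The CBFs are transcription factors that bind the CRT/DRE element of cold-regulated promoters. Their overexpression in the warmth asks which genes a CBF can raise without cold.

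Values below are the authors' GCRMA levels on a log2 scale, and differences are log2 differences with the standard error of a limma fit to all samples. A gene is said to have risen or fallen where its Benjamini-Hochberg adjusted p over 14578 tested features was below 0.05 and its change at least 2-fold. GCRMA levels at or below 4 were counted as not detected. RNA of whole shoots cannot tell more cells with a transcript from more transcript per cell.

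Both genes rose in wild-type plants in the cold. The STZ level was 4.10, 3.88, 4.04 and 4.58 in the 4 warm wild-type samples and 6.45, 8.02, 7.35 and 7.62 in the 4 cold ones. The groups did not overlap, and 1 warm sample lay under the detection level. The difference was 3.21 ± 0.30, a 9.25-fold rise (adjusted p = 2.04e-09), with a 95% interval from 2.59 to 3.83. It was the 69th highest of 14578 changes, where 18.4% of features were called, 8.74% higher and 9.67% lower. The PUB19 level was 4.73, 4.73, 4.75 and 4.77 in the warm samples and 7.37, 7.93, 8.35 and 9.60 in the cold ones. The groups again did not overlap, and the cold samples spread over 2.23 units while the warm ones spread over 0.04. PUB19 rose by 3.57 ± 0.35, or 11.9-fold (adjusted p = 4.34e-09), the 53rd highest change.

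The narrow warm values of PUB19 bear on the size of its rise. Only 2.23% of all tested features had a range as small as that in the warm wild type, and 7 of the 28 samples lay within 0.05 of the lowest PUB19 value, 4.73. Whether these warm values are a background level of the probe set was not tested. For STZ the samples above the detection level in warmth numbered 3 of 4 in the wild type, 3 in CBF2Δc, 2 in CBF1OX, 1 in CBF2OX and 4 in CBF3OX, so many of its warm values also lay near the detection level.

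**Figure D1:**
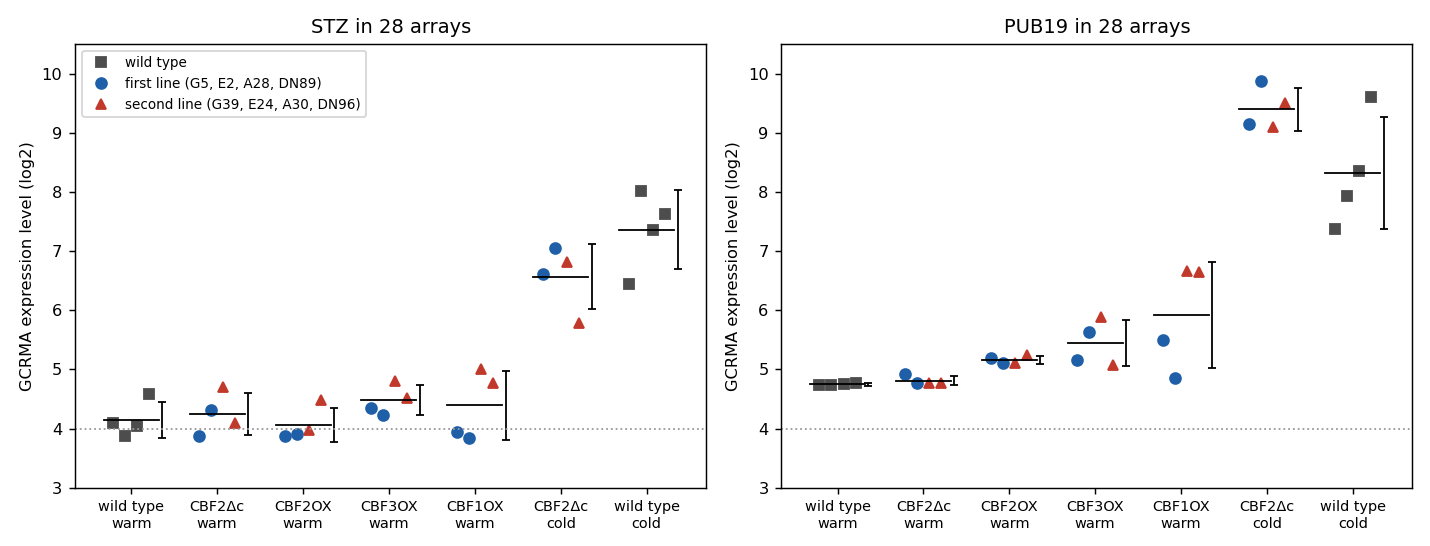
GCRMA level (log2) of STZ on the left and of PUB19 on the right in each of 28 arrays, with squares for the wild type, circles for the first line of a construct, triangles for the second, a bar at the group mean and an error bar of 1 SD (n = 4). The dotted line marks the detection level of 4, and in both panels the cold groups lie above all warm groups.

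Among warm plants, no overexpressor had a called difference in STZ from the wild type. All comparisons with the warm wild type share its 4 samples. The STZ level was 3.94, 3.84, 5.01 and 4.77 in CBF1OX, 3.88, 3.90, 3.97 and 4.49 in CBF2OX, and 4.34, 4.23, 4.81 and 4.52 in CBF3OX. Each of these groups overlapped with the warm wild type. The differences from the wild type were 0.24 (95% interval -0.38 to 0.86), -0.09 (-0.71 to 0.53) and 0.33 (-0.29 to 0.94), all ± 0.30 (adjusted p = 0.736, 0.930 and 0.580). The upper ends of these intervals lie below a 2-fold rise, while the rise in the cold was 9.25-fold. The intervals pool the 2 lines of a construct. Taken by line, the upper end was 1.40 in G39 (0.74 ± 0.32, limma adjusted p = 0.111, not called) and 1.17 in A30, both past 2-fold. It was at most 0.79 in the other overexpressor lines.

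PUB19 had higher values in the overexpressors than in the warm wild type. Its level was 5.50, 4.86, 6.67 and 6.64 in CBF1OX, and here every sample exceeded every warm wild-type sample. The difference was 1.17 ± 0.35 (adjusted p = 0.0441), the single call among the 2 genes in CBF1OX, where 2.53% of all features were called. In CBF2OX the level was 5.20, 5.11, 5.10 and 5.24, and in CBF3OX 5.16, 5.64, 5.89 and 5.07. These groups also lay wholly above the warm wild type. Their differences of 0.42 ± 0.35 and 0.70 ± 0.35 were not called (adjusted p = 0.594 and 0.239), at backgrounds of 2.5% and 3.6%. The warm wild type spanned only 0.04 units, so small shifts separate a group from it. The share of all features that separate in this way was not counted. The fit takes 1 spread for all groups, and the SD of PUB19 was 0.02 in the warm wild type, 0.07 in CBF2OX, 0.39 in CBF3OX, 0.89 in CBF1OX and 0.95 in the cold wild type. The CBF1OX call ended without a filter on low values, with line as a random block, without replicate 3 or 4 of CBF1OX, or without any 1 sample of the warm wild type, with differences from 0.92 to 1.53 over the samples left out. With only the compared groups in the fit it also ended (adjusted p = 0.178), while the adjusted p was 0.0135 for CBF2OX and 0.0238 for CBF3OX (0.0135 to 0.770 and 0.0238 to 0.467 over all alternatives), with changes still under 2-fold.

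An exact two-sided permutation test, which uses no pooled spread, gave PUB19 p = 0.0286 for all 3 overexpressors against the warm wild type. It is the smallest value that 4 against 4 samples allow, and it follows from the lack of overlap. The permutation p was 0.0571 after adjustment over the 26 tests made for the comparisons. It was 0.048 over 42 tests (21 pairs of groups in each gene), many of them cold against warm. Those cold against warm pairs all had the smallest possible p, which lowers the adjusted values, so 0.048 is not read as passing a threshold. The test counts the 2 samples of a line as independent. For STZ the exact permutation p was 0.514, 0.571 and 0.171. No difference among the overexpressors was called in either gene, and the 95% intervals of these differences reached from -1.03 to 1.47. The largest was 0.76 ± 0.35 for PUB19 between CBF1OX and CBF2OX (adjusted p = 0.767), where 0.0343% of features were called. The background was 0.0206% both between CBF1OX and CBF3OX and between CBF2OX and CBF3OX.

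All 3 overexpressors stayed far below the cold wild type. The STZ difference from the cold wild type was -2.97 ± 0.30 in CBF1OX, -3.3 ± 0.30 in CBF2OX and -2.89 ± 0.30 in CBF3OX (adjusted p = 1.05e-08, 1.53e-09 and 1.72e-08). The PUB19 difference was -2.40 ± 0.35, -3.15 ± 0.35 and -2.87 ± 0.35 (adjusted p = 2.99e-06, 4.11e-08 and 1.97e-07). Both genes were called lower in each comparison, where 15.8%, 16.6% and 15.5% of all features were called. COR15A, a direct CBF target that encodes a chloroplast protein, was measured in the same samples. Its level was 12.57 ± 0.45, 12.71 ± 0.42 and 12.57 ± 0.25 (SD, n = 4) in the overexpressors, against 12.16 ± 0.19 in the cold wild type and 4.47 ± 0.36 in the warm one.

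**Figure D2:**
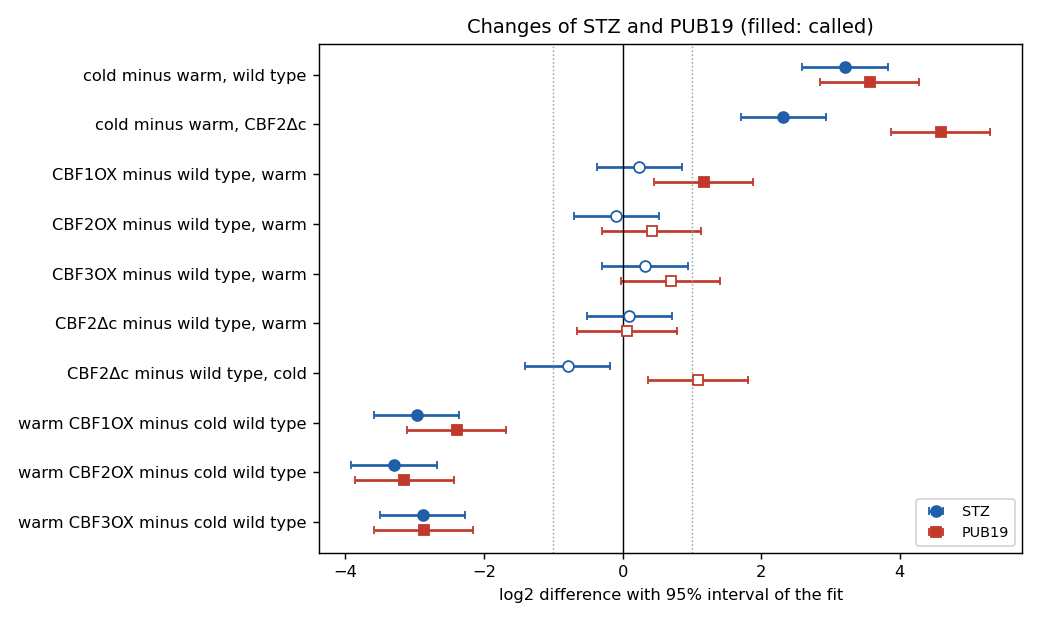
Log2 differences of STZ (circles) and PUB19 (squares) in 10 comparisons, with the 95% interval of the fit and filled symbols for called differences. Both genes lie at 2.32 or more for cold against warm plants and at -2.40 or less for warm overexpressors against the cold wild type, and of the warm comparisons with the wild type only that of PUB19 in CBF1OX is filled.

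PUB19 was higher in line G39 of CBF1OX than in line G5. PUB19 stood at 6.67 and 6.64 in G39 and at 5.50 and 4.86 in G5, a difference of 1.48 ± 0.42 (adjusted p = 0.0241, with 5.89% of features called between these lines). This call ended without replicate 2, 3 or 4 of CBF1OX, with differences from 1.16 to 1.80 over the samples left out. Against the warm wild type, G39 was higher by 1.91 ± 0.37 (adjusted p = 0.000479, 8.06% of features called), and G5 by 0.44 ± 0.37 (adjusted p = 0.908, 0.521% called). STZ also had higher values in G39, 5.01 and 4.77 against 3.94 and 3.84, and this 2-fold difference (SE 0.37 on the log2 scale) was not called (adjusted p = 0.0863). Other measures also had different means in the 2 lines, and no test of these differences is given here. COR15A averaged 12.92 in G39 and 12.23 in G5, and the 3 measured root marker genes were lower in G39, with PYK10 at 11.38 against 12.30, EXPA18 at 3.75 against 4.49 and EXPA7 at 3.83 against 4.16. Both EXPA genes lay near or below the detection level of 4. The 3 measured leaf marker genes were lower in G39 too, with LHCB4.2 at 9.83 against 11.23, SBPASE at 11.86 against 12.27 and RCA at 13.43 against 13.64. Their part in the result was not tested.

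Within the other constructs no line difference was called in these genes. The second line minus the first was 0.34 ± 0.37 for STZ and 0.02 ± 0.42 for PUB19 in CBF2OX, and 0.38 ± 0.37 and 0.08 ± 0.42 in CBF3OX. In warm CBF2Δc plants it was 0.31 ± 0.37 for STZ and -0.08 ± 0.42 for PUB19. With 2 samples a line, the 95% intervals of these differences reach from -0.96 to 1.14. The background was 2.3% of features between E24 and E2, 0.00686% between A30 and A28, and 0.919% between DN96 and DN89 in warmth. Taken against the warm wild type one line at a time, PUB19 was at 0.41 ± 0.37 in E2, 0.43 ± 0.37 in E24, 0.66 ± 0.37 in A28 and 0.74 ± 0.37 in A30, with no call, and STZ at -0.26, 0.08, 0.14 and 0.52, each ± 0.32 and also with no call. In these comparisons 5.17%, 2.37%, 4.53% and 3.77% of features were called.

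In warm CBF2Δc plants neither gene had a called difference from the wild type. STZ was at 3.88, 4.31, 4.71 and 4.09, a difference of 0.10 ± 0.30 (95% interval -0.52 to 0.71). PUB19 was at 4.92, 4.77, 4.77 and 4.77, a difference of 0.06 ± 0.35 (-0.65 to 0.78). The adjusted p was 1 for both, and 0.0206% of all features were called. Taken singly, DN89 and DN96 had no call in either gene, where 0.0274% and 1.18% of features were called.

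Cold raised both genes in CBF2Δc plants too. STZ reached 6.62, 7.05, 6.81 and 5.79, a rise of 2.32 ± 0.30 (adjusted p = 4.24e-07), or 4.99-fold. PUB19 reached 9.14, 9.87, 9.09 and 9.50, a rise of 4.59 ± 0.35 (adjusted p = 5.64e-11), or 24.1-fold and the 24th highest change in these plants. Cold and warm samples did not overlap in either gene, where 18.1% of features were called, 9.08% higher and 8.99% lower. Both lines showed the rises, with STZ up by 2.74 in DN89 and 1.9 in DN96 (adjusted p = 3.09e-06 and 0.000249) and PUB19 up by 4.66 and 4.53 (adjusted p = 1.38e-08 and 2.36e-08). The background was 19.2% of features called in DN89 and 18.1% in DN96.

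Against the wild type in the cold, the genes lay on opposite sides, without a call for either. STZ was lower in cold CBF2Δc plants by 0.79 ± 0.30 (95% interval -1.41 to -0.18, adjusted p = 0.122). PUB19 was higher by 1.09 ± 0.35 (0.37 to 1.80, adjusted p = 0.0663). The groups overlapped in both genes, with exact permutation p = 0.143 and 0.114, and 0.837% of features were called. In each gene, 7 of the 8 fits with 1 sample left out also made no call, and 1 made a call. Without replicate 1 of the cold wild type, its lowest STZ sample, the STZ difference was -1.10 (adjusted p = 0.0262, a call), and it ranged from -1.10 to -0.53 over the samples left out. Without replicate 4 of the cold wild type, its highest PUB19 sample, the PUB19 difference was 1.52 (adjusted p = 0.00564, a call), with a range from 0.77 to 1.52.

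The difference in cold response between CBF2Δc and the wild type, an interaction, was -0.89 ± 0.42 for STZ and 1.03 ± 0.49 for PUB19. Their unadjusted p was 0.0455 and 0.0474 and their adjusted p 0.547 for both, where 0.0274% of features were called. By line, STZ in cold DN96 plants, at 6.81 and 5.79, was lower than in the cold wild type by 1.06 ± 0.32 (adjusted p = 0.0365, 2.76% of features called). In DN89, at 6.62 and 7.05, it was lower by 0.53 ± 0.32 (adjusted p = 0.381, 0.686% called). The call in DN96 ended without replicate 4 of the cold CBF2Δc plants (-0.55), or without replicate 2 (-0.84), 3 (-1.06) or 4 (-0.97) of the cold wild type. The difference between the lines, -0.54 ± 0.37, was not called (adjusted p = 0.530, at 1.1% of features). PUB19 was higher than in the cold wild type by 1.19 ± 0.37 in DN89 and 0.98 ± 0.37 in DN96 (adjusted p = 0.0695 and 0.0965).

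Ordered by their mean, the STZ levels ran from 4.06 ± 0.29 (SD, n = 4) in CBF2OX over 4.15 ± 0.30 in the warm wild type, 4.25 ± 0.35 in warm CBF2Δc, 4.39 ± 0.59 in CBF1OX and 4.48 ± 0.25 in CBF3OX to 6.57 ± 0.55 in cold CBF2Δc and 7.36 ± 0.67 in the cold wild type. The 5 warm groups overlapped with each other, and so did the cold groups, so a clear step lay only between warm and cold. The PUB19 levels ran from 4.75 ± 0.02 in the warm wild type over 4.81 ± 0.08 in warm CBF2Δc, 5.16 ± 0.07 in CBF2OX, 5.44 ± 0.39 in CBF3OX and 5.92 ± 0.89 in CBF1OX to 8.31 ± 0.95 in the cold wild type and 9.40 ± 0.36 in cold CBF2Δc. Here warm CBF2Δc and CBF2OX did not overlap (difference 0.36, exact permutation p = 0.0286 and 0.048 adjusted over 42 tests, many of them cold against warm). CBF3OX lay above warm CBF2Δc in the same way (difference 0.63). CBF1OX overlapped with warm CBF2Δc (difference 1.11, exact permutation p = 0.0571, 0.0923 adjusted). The share of all features that separate in this way was not counted. Of the neighbours in this order, CBF1OX and the cold wild type did not overlap either, while all other neighbours overlapped.

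STZ and PUB19 were both high in the cold samples. The cold sample with the highest STZ level, wild-type replicate 2 at 8.02, had a PUB19 level of 7.93. Wild-type replicate 1 was lowest among the cold wild-type samples in both genes. Across the 20 warm samples the levels had a Pearson correlation of 0.60 (permutation p = 0.00484, 0.0194 adjusted over 4 tests) and a Spearman correlation of 0.37 (permutation p = 0.107, 0.214 adjusted). The permutation treats the warm samples as independent, although they share groups and lines. The 2 samples of line G39 were the highest warm ones in PUB19 (6.67 and 6.64), with STZ at 5.01 and 4.77. Without the 2 samples farthest from the median STZ level the Pearson correlation over the warm samples was 0.34, a step that also narrows the range of STZ. Across the 8 cold samples the Pearson correlation was -0.17 (exact permutation p = 0.691) and the Spearman correlation 0 (exact permutation p = 1), and without the 2 farthest samples the former was 0.49. The cold samples hold 2 groups whose means differ in opposite directions in these genes (-0.79 in STZ and 1.09 in PUB19, CBF2Δc minus wild type). After removal of each group's mean, the Pearson correlation over all 28 samples was 0.52, given as a description. Line means were not removed, so the difference between G39 and G5 in both genes stays in this value. Warm and cold samples form separate clusters, so no value pooled over group means is given.

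**Figure D3:**
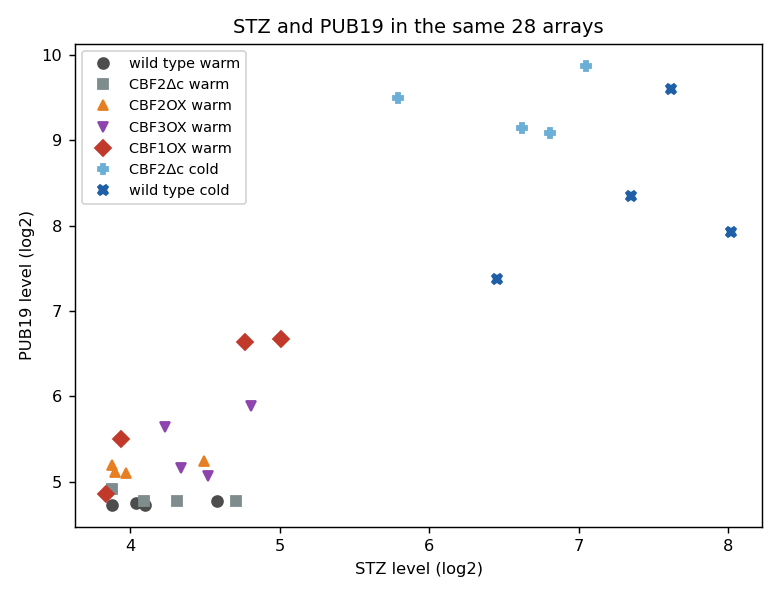
PUB19 level (log2) against STZ level (log2) in the same 28 arrays, with 1 symbol per group. The cold samples lie apart from the warm ones in both genes, the 4 cold CBF2Δc samples lie between 9.09 and 9.87 in PUB19, and the 2 CBF1OX samples of line G39 lie at 6.64 and 6.67, above all other warm samples.

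The U-box family of ubiquitin ligases gives PUB19 a comparison within its own class. Of 22 listed U-box genes, 11 had a probe set of their own and 9 were tested. PUB19 was the 1 of the 9 that rose in cold wild-type plants, and AT1G23030 was the 1 that fell (-1.72 ± 0.22, adjusted p = 3.15e-07). The median of the 9 was -0.37, against -0.04 over all tested features. Of all features 18.4% were called, 8.74% higher and 9.67% lower, so 1 of 9 in each direction is near the background. PUB22 and PUB23, related ligases that are known to dampen drought and immune responses, had lower values in the cold. PUB22 went from 5.65 ± 0.05 to 5.02 ± 0.38 (-0.64 ± 0.25, adjusted p = 0.0371) and PUB23 from 6.78 ± 0.14 to 5.78 ± 0.41 (-0.995 ± 0.24, adjusted p = 0.00121), both under the 2-fold minimum. AT1G71020 changed by -0.83 ± 0.12 (adjusted p = 3.59e-06), also under 2-fold.

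In CBF2Δc plants in the cold, 4 of the 9 U-box genes fell while PUB19 rose. Those that fell were AT1G23030 (-1.65 ± 0.22), AT1G71020 (-1.37 ± 0.12), PUB22 (-1.21 ± 0.25) and PUB23 (-1.02 ± 0.24), with adjusted p = 5.95e-07, 1.24e-09, 0.000262 and 0.000974. Of all features 18.1% were called, 9.08% higher and 8.99% lower. PUB25 and PUB26, ligases known to take part in freezing tolerance, were not called in either cold comparison. PUB25 was at 0.22 ± 0.23 in the wild type and -0.05 ± 0.23 in CBF2Δc, and PUB26 at -0.37 ± 0.17 and -0.49 ± 0.17. PUB43 and AT3G49810 stayed between -0.08 and 0.09 in these comparisons.

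Under CBF overexpression in the warmth, PUB22 had higher values than in the wild type. It rose in CBF2OX by 1.07 ± 0.25 (adjusted p = 0.0111), from 5.65 ± 0.05 to 6.72 ± 0.38. In CBF1OX it was higher by 0.98 ± 0.25 (adjusted p = 0.0219, just under 2-fold) and in CBF3OX by 0.71 ± 0.25 (adjusted p = 0.0823). PUB19 in CBF1OX and PUB22 in CBF2OX were the calls among the 9 genes in the overexpressors, and none was called in CBF3OX by the same limma fit, where 0 of the 9 had an adjusted p below 0.05. Over all features 2.53%, 2.5% and 3.6% were called in CBF1OX, CBF2OX and CBF3OX. PUB22 averaged 7.17 in line G39 against 6.10 in G5, 7.04 in E24 against 6.41 in E2, and 6.46 in A30 against 6.26 in A28. No test of these line differences is given here. PUB49, added to the list after the annotation was seen, was not called in any of these comparisons (0.37 ± 0.13 in the wild type in the cold).

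**Figure D4:**
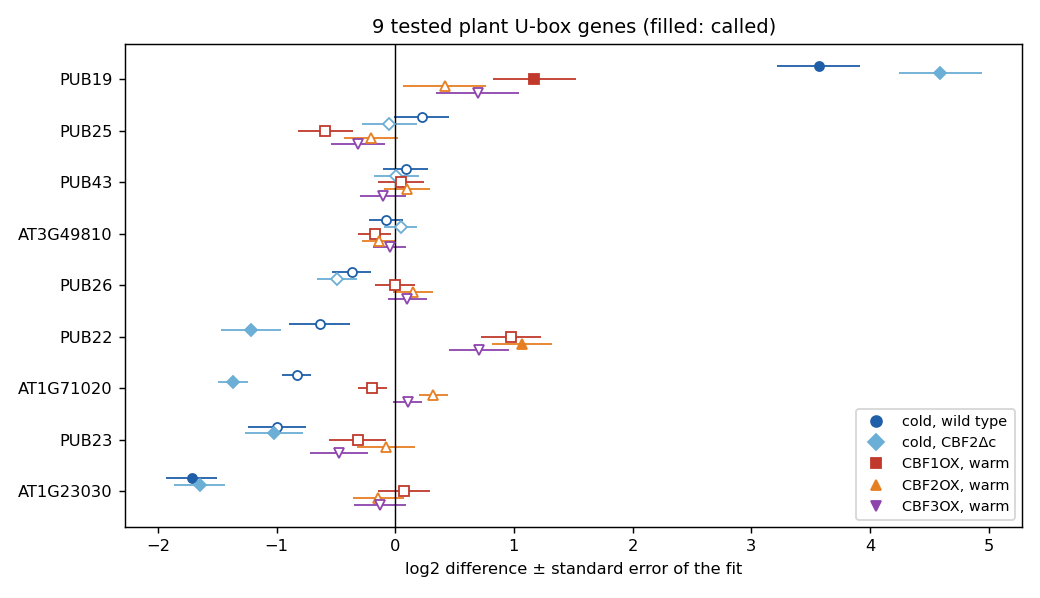
Log2 differences ± standard error of the fit for the 9 tested U-box genes in the cold (wild type and CBF2Δc) and in 3 warm overexpressors, with filled symbols for called differences. PUB19 has the points at 3.57 and 4.59 in the cold, where no other gene of the list exceeds 0.22, and PUB22 has positive values in the overexpressors and negative ones in the cold.

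Few relatives of STZ could be read. Of 17 listed C2H2 genes, 6 had a probe set of their own and 3 were tested, since AT3G53600, AT2G45120 and AT3G60580 reached levels of at most 3.10, 4.00 and 2.47. STZ was the 1 of the 3 that rose in cold wild-type plants. AT2G28200 changed by -0.96 ± 0.25 there (adjusted p = 0.0025, under 2-fold) and fell in CBF2Δc by 1.10 ± 0.25 (adjusted p = 0.000706), and AT2G28710 was at 0.03 ± 0.18 and -0.54 ± 0.18. None of the 3 was called in an overexpressor by limma, where AT2G28200 in CBF3OX (-0.82 ± 0.25, adjusted p = 0.0422) was the 1 value with an adjusted p below 0.05. Over all features 18.4% were called in the wild type in the cold, 18.1% in CBF2Δc, and 2.53%, 2.5% and 3.6% in the overexpressors, so 0 of 3 in the latter is near the background. The median of the 3 was 0.03 in the wild type in the cold, against -0.04 over all features. The other genes listed for this work, among them the early cold transcription factors other than STZ, MAP kinases and core genes of the abscisic acid response, had no probe set with a single gene in the annotation used and were not analysed here.

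Antioxidant enzymes are of interest beside STZ because Arabidopsis plants with altered STZ levels are known to differ in them. Of 14 listed genes 5 were tested, and the others, among them APX1, APX2 and FSD1, had no probe set of their own. In the wild type in the cold, GR1, which encodes a glutathione reductase, rose by 1.76 ± 0.18 (adjusted p = 1.03e-08) and SAPX, a chloroplast ascorbate peroxidase gene, rose 2-fold (SE 0.26 on the log2 scale, adjusted p = 0.00184). ATMDAR2, which encodes a monodehydroascorbate reductase, fell by 1.01 ± 0.19 (adjusted p = 7.58e-05). TAPX and GR, genes of the thylakoid ascorbate peroxidase and of another glutathione reductase, were at -0.92 ± 0.19 and 0.38 ± 0.11, under 2-fold. GR1 (1.84 ± 0.18) and SAPX (1.34 ± 0.26) also rose in CBF2Δc plants in the cold. ATMDAR2 was at -0.34 ± 0.19 in that comparison and was not called (limma adjusted p = 0.144), and TAPX and GR stayed under 2-fold. In the overexpressors 0 of the 5 were called by limma, and those with an adjusted p below 0.05 were GR1 (0.65 ± 0.18) and GR (0.45 ± 0.11) in CBF1OX and GR (0.52 ± 0.11) in CBF2OX. The shares of all features called were again 18.4% and 18.1% in the cold and 2.5% to 3.6% in the overexpressors, so 0 of 5 in the latter is near the background.

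The features whose levels followed each gene most closely over the 28 samples were taken by Pearson correlation, and the samples share the step from warm to cold. For STZ they were AT2G32020 (Pearson r = 0.963), AT4G33905 (0.960), a probe set with no gene in the annotation used (0.958), AT2G41730 (0.955), AT2G15340 (0.953) and another such probe set (0.947). All 6 had higher values in the cold wild type, by 1.79 to 4.82, and differences between cold CBF2Δc and the cold wild type from -1.37 in AT2G41730 to -0.10. In warm overexpressors their differences from the wild type lay between -0.51 and 0.70. For PUB19 they were AT3G16800 (0.972), AT2G28400 (0.968), AT3G55430 (0.967), a probe set with no gene named (0.966), LEA4-5, a late embryogenesis abundant protein gene (0.964), and AT5G55180 (0.962). These differed by 1.94 to 5.32 in the cold wild type, by 0.42 to 1.52 in CBF1OX, and by 0.07 to 0.75 between cold CBF2Δc and the cold wild type. Both sets were picked for likeness to STZ or PUB19 over these same samples. Their differences therefore follow those of the 2 genes by selection and are no separate evidence for them.

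After removal of group means, with line means kept, the Pearson correlations lay between 0.42 and 0.68 for the STZ features and between 0.55 and 0.77 for the PUB19 features. By Spearman correlation 0 of the 6 stayed among the 6 closest for either gene. By group means 0 stayed, and by correlation within groups 0 for STZ and 1 for PUB19.

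Neighbouring genes on the chromosome, by the order in RefSeq's TAIR10.1 annotation, were looked at after the values of STZ and PUB19 were known. The nearest tested protein-coding gene on 1 side of STZ, SAT32 with 3 genes between, rose in cold wild-type plants by 3.02 ± 0.24 (adjusted p = 1.27e-10), in CBF2Δc by 2.48 ± 0.24 and in CBF1OX by 1.15 ± 0.24 (adjusted p = 0.00532). On the other side AT1G27700, with 2 genes between, was at -0.07 ± 0.11 in the wild type in the cold. The neighbours of PUB19, AT1G60160 with 1 gene between and AT1G60200 with 0 between, were at -0.23 ± 0.17 and -0.03 ± 0.11 there, with no call.

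The labelled tissue was checked by marker genes. Of 9 leaf genes 3 were measured and were high in all samples (RCA between 12.83 and 13.77), and their summed level was 36.24 to 37.04 in the warm wild type and 33.01 to 34.83 in the cold wild type. Of 10 root genes 3 were measured, and EXPA7 and EXPA18 lay between 2.79 and 4.8, around the detection level, while PYK10, a glucosidase gene known from roots and hypocotyls, lay between 10.38 and 12.46. The root sum was 19.75 to 21.41 in the warm wild type and 18.30 to 19.79 in the cold, and 16.68 to 18.17 in cold CBF2Δc. FMA, the 1 of 8 guard cell genes measured, was at 5.01 to 5.65 in the warm and 4.59 to 5.04 in the cold wild type. These summed levels were lower or overlapping in the cold wild type, and their part in the rises was not tested. Array medians ran from 4.98 to 5.08, and the number of arrays limits the precision.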

How the data were processed

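The deposited values are log2 expression levels per probe set of an Affymetrix array, made by the authors with GCRMA, and limma is also named, per the submitters' processing notes. Neither their versions nor any joint handling of the arrays is stated there. A base of 2 was inferred from the range, 2.16 to 14.53, where 11.6% of values lay at the lowest. Of 22810 probe sets 64 controls were left out. Annotation gave 13513 probe sets 1 gene, 503 several and 8730 none; the last 2 kinds kept their own identifier. The probe set with the highest mean stood for a gene, and features above 4 in at least 4 arrays were tested.

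limma 3.58.1 (with statmod 1.5.0, in R 4.3.3) fitted 1 mean per group to all 28 arrays (lmFit, eBayes), and 1 mean per line for line comparisons. Python 3.11.15 with numpy 2.4.6, pandas 2.3.3, scipy 1.17.1 and matplotlib 3.10.9 did the rest. The fit was tested on simulated data. Exact permutation tests used all 70 arrangements of 4 against 4 samples.

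Named genes are STZ, PUB19, the 6 features most correlated with each, and members of written lists; tissue markers are named as a check, and COR15A, neighbours and PUB49 were added later. The members and lists were chosen with earlier results of these data known. Replicate numbers repeat across groups. Of the 7 pairs of groups checked, deviations of same-numbered samples correlated above 0.1 in all 4 pairs of samples between warm and cold CBF2Δc plants (0.15 to 0.28), where they also share a line, and not in the other 6. RefSeq was used for names and gene order only. Sequences were not used here.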

Additional observations from a re-analysis of the deposited data

Results flagged for a closer look

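In CBF2OX plants, STZ was at 4.49 in replicate 4 (line E24), apart from 3.88, 3.90 and 3.97 in the other samples, a gap of 0.852 of the group's range. In warm CBF2Δc plants, PUB19 was at 4.92 in replicate 1 (line DN89) while the other 3 samples were all at 4.77, so the gap was 1 of the range, which was 0.15 units. Both gaps exceed Dixon's 95% limit for 4 samples. For PUB19 this was fixed by the 3 equal values, with which any departure gives a gap of 1. The flagged groups are 2 of 14 looked at, and chance gives about 1 in 20.

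PUB19 was higher in line G39 of CBF1OX than in line G5, by 1.48 ± 0.42 with 2 samples a line (limma adjusted p = 0.0241). This call ended without a filter on low values, and the difference ran from 1.16 to 1.80 without single samples. Between these lines 5.89% of all features were called. Whether the difference reflects the effect of CBF1 was not tested.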

How the results depend on the processing

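Over 476 alternatives for 31 comparisons each, STZ kept its direction and its side of the threshold in 455 and PUB19 in 451. Most of these comparisons had no call to lose, so the tally says little about the calls. The call of PUB19 in CBF1OX ended in 12 of its 20 alternatives. The rises of both genes in the cold, in wild-type and in CBF2Δc plants, and the lower levels of all 3 overexpressors against the cold wild type were called in each alternative run. The wild-type rise of STZ ran from 2.99 to 3.51 and that of PUB19 from 3.14 to 3.88.

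The call of PUB19 in CBF1OX (1.17) ended with the first lines alone (0.44), with line as a random block (1.17), with line means as samples (1.17), without a filter (1.17), with only the compared groups (1.17), after quantile normalization (1.16), and without CBF1OX replicate 3 or 4 or any one warm wild-type sample (0.92 to 1.53 over all samples left out). It was 1.91 with line G39 alone. Without a filter the calls of PUB19 between G39 and G5 (1.48) and of STZ in cold DN96 (-1.06) also ended. Without single samples the former ran from 1.16 to 1.80, its call ending without CBF1OX replicate 2, 3 or 4, and the latter from -1.57 to -0.55. PUB19 in cold DN89 and DN96 ran from 0.83 to 1.62 and from 0.67 to 1.41 and was called without replicate 4 of the cold wild type. In cold CBF2Δc against the wild type PUB19 ran from 0.77 to 1.52 and STZ from -1.10 to -0.53.

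Directions turned only among differences that were not called. With the first lines alone these were PUB19 for CBF1OX minus CBF3OX (-0.22), STZ in CBF1OX (-0.26) and STZ in warm CBF2Δc (-0.055). With the second lines alone they were STZ for CBF1OX minus CBF3OX (0.23) and in CBF2OX (0.08). Single samples left out gave PUB19 ranges of -0.33 to 0.49 (A30 minus A28), -0.58 to 0.16 (DN96 minus DN89, cold) and -0.055 to 0.085 (E24 minus E2). They gave STZ ranges of -0.29 to 0.10 (CBF1OX minus CBF3OX), -0.23 to 0.0533 (CBF2OX), -0.0567 to 0.24 (warm CBF2Δc), -0.27 to 0.16 (warm DN89), -0.06 to 0.56 (warm DN96), -0.005 to 0.62 (DN96 minus DN89, warm) and -0.18 to 0.34 (E24). A line left with 1 sample is assumed to vary like the other groups. The causes were not tested.

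Numbers of called features moved with the samples used. They ran over all alternatives from 35 to 1169 in CBF1OX (369), 226 to 752 in CBF2OX (364), 317 to 650 in CBF3OX (525), 1 to 139 in warm CBF2Δc (3), 26 to 376 in cold CBF2Δc against the wild type (122) and 0 to 65 for the interaction (4). They ran from 1 to 451, 1 to 341 and 2 to 135 between the overexpressors (5, 3 and 3). Leaving out any 1 of the 4 CBF1OX samples moved that count by over 1.5 times (140 to 629). Line counts ran from 183 to 383 for E24 minus E2 (335), 1 to 6 for A30 minus A28 (1, highest without CBF3OX replicate 2), 40 to 141 and 98 to 195 for DN96 minus DN89 in warmth (134) and cold (160), 72 to 159 for cold DN89 (100) and 31 to 77 for G5 (76). By adjusted p alone, 5 in place of 2 of the 9 U-box genes were called in the wild type in the cold. The replicate number as a block, a shared number without a stated pairing, changed no call of STZ or PUB19; with it the PUB19 change in CBF1OX was 1.17 and the rises of STZ and PUB19 in cold CBF2Δc plants 2.32 and 4.59.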
